A study of Mus musculus with 22 samples.

Results

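The limb mesenchyme transcription factors described here are Prrx1, Prrx2, Shox2, Tbx4, Tbx5, Tbx15, Pitx1, Msx1, Msx2 and Twist1, chosen by exact gene symbol. All 10 were found in each of the deposited count tables, among 34866 gene identifiers in the culture tables and 23911 in the whole-number cartilage table. RNA sequencing compared mice that lack the DNA methyltransferase Dnmt1 in limb mesenchyme with control mice, in 22 samples. Control samples carried a floxed Dnmt1 allele and are labelled "Dnmt1 flox" or "flox", with no Cre named. The conditional knockout (cKO) is labelled Prrx1-Cre;Dnmt1 flox/flox in the cultures, so Cre was driven by regulatory DNA of Prrx1, which is active in early limb mesenchyme and therefore in many of its descendants, not in chondrocytes alone. In cartilage the same line is labelled only cKO, with Prx1Dnmt1 in its title.

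Primary chondrocytes from knee articular cartilage of mice at postnatal day 3 to 5 were sequenced without treatment (day 0, 3 control and 3 cKO cultures) or after 3 days with the growth factor BMP2 at a labelled 100 ng/µl (day 3, 4 control and 4 cKO cultures). Cartilage of mice at postnatal day 5 was treated with collagenase, and gave 4 control and 4 cKO samples, with 2 males (replicates 1 and 2) and 2 females (replicates 3 and 4) in each genotype. The labels call the cultures biological replicates and do not say whether a sample came from 1 animal or a pool, so the p-values measure the spread between these samples.

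Paired-related homeobox, Msx and Twist factors keep limb bud mesenchyme proliferating and immature, and Msx genes are well-known targets of BMP signals. Pitx1 and Tbx4 act in the hindlimb and Tbx5 in the forelimb, where they start limb outgrowth and help to set limb type. Shox2 and Tbx15 act later in the growth of limb bones, in the mesenchyme that condenses and in the cartilage that forms from it.

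Total counts were 41749546 to 51741669 per library at day 0, 14434320 to 18918905 at day 3 and 1100198 to 1888896 in cartilage. Levels in the text are CPM, the counts scaled to a common library size by TMM, computed for the 14 cultures together and for the 8 cartilage libraries together. A gene is called higher or lower where edgeR's quasi-likelihood test gave a Benjamini-Hochberg adjusted p under 0.05 over all genes tested. Whether the libraries of 2 groups overlapped is given per gene as a description only. The share of all genes without overlap was not computed. Dnmt1 itself fell in the cKO by 2.44 on the log2 scale at day 0 (SE 0.0718, adjusted p = 1.62e-08), fell by 1.41 at day 3 (SE 0.314, adjusted p = 0.00625) and fell by 1.66 in cartilage (SE 0.201, adjusted p = 6.34e-05), with no overlap between the groups' CPM ranges in any of the 3 settings. All 10 chondrocyte markers listed for the check were detected in every group. Their summed level was 139181 to 147464 CPM in control and 49516 to 60601 CPM in cKO cultures at day 0, and 89105 to 111122 against 1137 to 16713 CPM at day 3. A list of 10 skeletal muscle markers rose from 1.71 to 2.34 CPM in day 3 control cultures to 149.9 to 1944 CPM in day 3 cKO cultures (7 of 7 tested genes called higher), with Myf5 at 0 in every day 3 library. Other marker sums differed without overlap too. At day 0 fibroblast and tendon markers summed to 5039 to 7450 CPM in control and 3018 to 3672 CPM in cKO cultures (6 of 10 called lower and 2 higher), and blood and osteoclast markers to 164.8 to 169.6 against 76.2 to 91.5 CPM (1 of 4 tested called lower and 2 higher). Muscle markers (7.13 to 7.97 against 42.97 to 55.1 CPM, 4 of 6 tested called higher) and joint surface markers (22.1 to 23.7 against 32.5 to 39.4 CPM, 2 of 4 called higher) were in the opposite order at day 0. At day 3 osteoblast markers summed to 54.9 to 82.5 CPM in control and 146 to 385 CPM in cKO cultures (3 of 5 tested called higher), and joint surface markers to 17.9 to 28.9 against 77.7 to 205 CPM (2 of 3 called higher), while the fibroblast and tendon sums overlapped. Endothelial and surface epithelium markers summed to at most 2.38 CPM in any culture. In bulk RNA, fewer cells of a type and less RNA per cell cannot be told apart, and the part of these marker differences in the members' results was not tested.

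Some libraries stood apart. Day 3 cKO replicate 4 had the lowest chondrocyte sum (1137 CPM against 11762 to 16713 in replicates 1 to 3) and the lowest muscle sum (149.9 against 1153 to 1944 CPM) of the day 3 cKO cultures, and the highest joint surface (205 against 77.7 to 107 CPM) and blood and osteoclast sums (358 against 98.6 to 118 CPM). Its Dnmt1 level (10.9 against 22.2 to 35.6 CPM) and osteoblast sum (146 against 304 to 385 CPM) were also the lowest of its group. A chi-square test of its counts against each of its 3 sister libraries gave 124 to 138 for each degree of freedom, where pairs of the other 3 gave 7.42 to 10.9. Cartilage cKO replicate 2, a male sample, stood apart in its limb-type genes, as described with them, and had more muscle marker RNA (47.8 against 13.9 to 16.8 CPM) and osteoblast marker RNA (264 against 19.4 to 34.4 CPM) than the other cKO samples. Members' calls that changed without either library are given with and without it, as are some other values. In cartilage, all 4 control libraries were made in one pool and all 4 cKO libraries in another, so genotype and pool cannot be told apart there.

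At day 0, 4 members were called higher in the cKO (Prrx2, Msx1, Msx2 and Twist1) and 5 lower (Prrx1, Shox2, Tbx4, Tbx5 and Pitx1), and Tbx15 did not pass. Over all 15530 genes tested, 33.0% were called higher and 31.6% lower, so the members' counts are near the background and say little of the members as a set. The members' median log2 fold change was -0.21 and that of all genes 0.01. Where all 14 cultures shared 1 estimate of the spread, Tbx4, Tbx5, Pitx1, Msx1 and Msx2 were not called at day 0 (adjusted p = 0.0748 to 0.462). At day 3, 4 members were called higher (Prrx1, Prrx2, Msx2 and Twist1) and 4 lower (Shox2, Tbx4, Tbx15 and Pitx1), where 25.5% of 13924 genes were called higher and 22.6% lower. The median was 0.32 for the members and 0.01 for all genes. Without day 3 cKO replicate 4, Tbx5 joined those called higher, which made 5 higher and 4 lower. The shares over all genes were not computed for that fit. In cartilage 9 members passed the filter on low counts and none was called in either direction, where 3.15% of 8793 genes were called higher and 3.04% lower. Day 0 and day 3 cultures share no library. Prrx2, Msx2 and Twist1 were called higher at both days, Shox2, Tbx4 and Pitx1 lower at both, and Prrx1 lower at day 0 and higher at day 3.

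**Figure D1:**
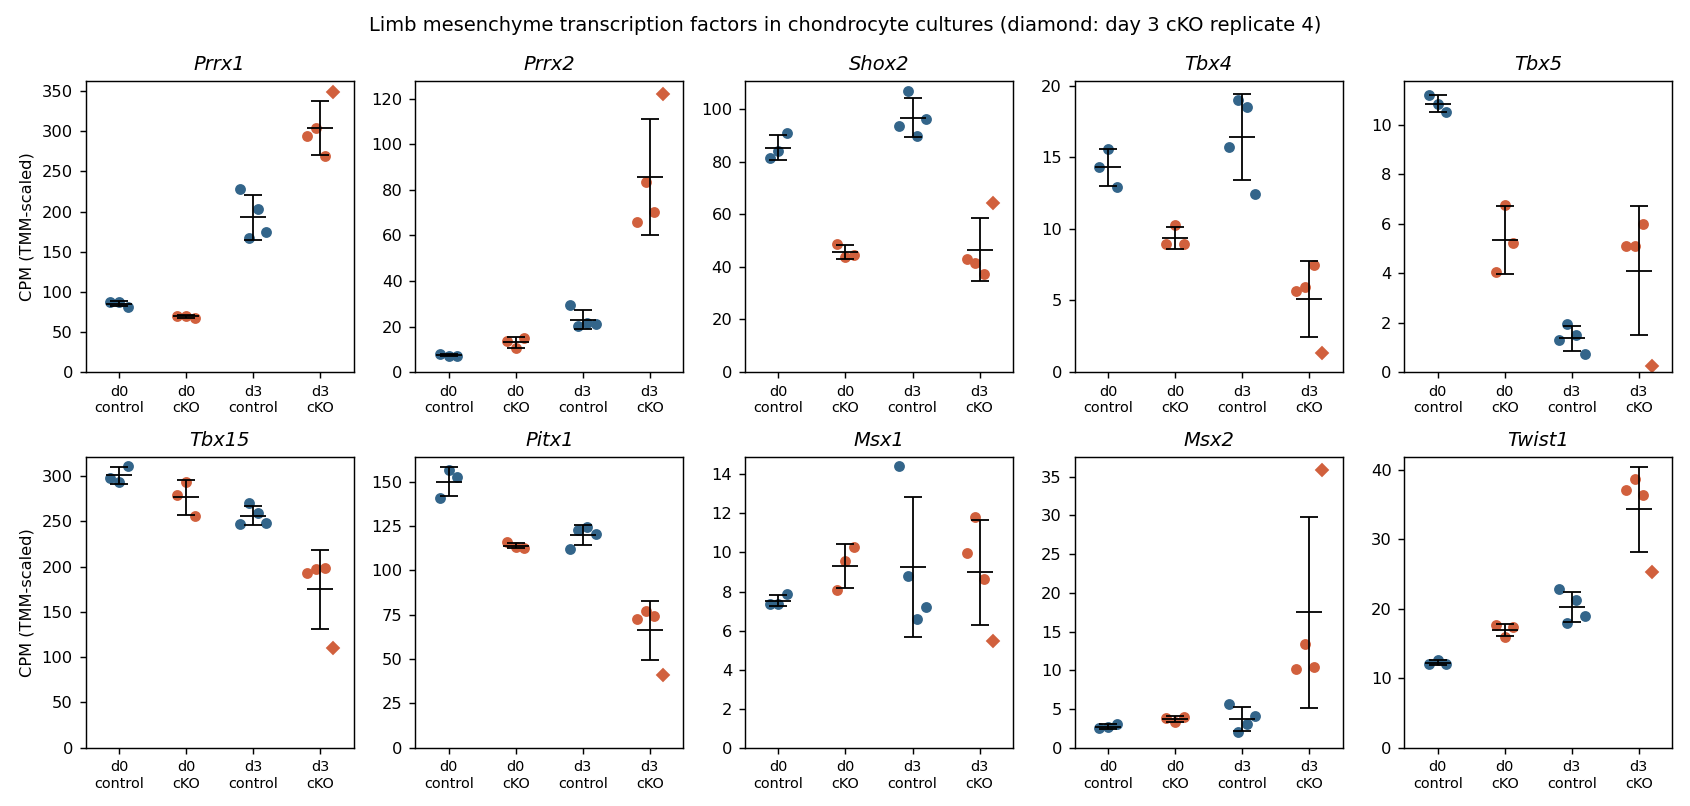
Level of each factor in the 14 cultures, in TMM-scaled CPM on a linear axis from 0, with 1 point per library and bars for the mean ± SD of each group (n = 3 at day 0, n = 4 at day 3). Prrx1, Prrx2 and Twist1 stood higher at day 3 than at day 0 in both genotypes, and the diamond marks day 3 cKO replicate 4, which lay lowest of its group for Tbx4, Tbx5, Tbx15, Pitx1, Msx1 and Twist1 and highest for Prrx1, Prrx2, Shox2 and Msx2.

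Levels can be compared between genes only per length, and this was done for the cultures, as CPM per kilobase of the gene's combined annotated exons (RPKM). In day 0 control cultures Tbx15 stood highest at 80.3 ± 2.46 RPKM (SD, n = 3), then Pitx1 at 56.5 ± 3.06 and Shox2 at 25.8 ± 1.47 RPKM. Prrx1 (7.703 ± 0.321) and Twist1 (7.53 ± 0.211) followed with overlapping ranges, then Tbx4 (4.203 ± 0.387) and Prrx2 (3.77 ± 0.217), which overlapped, and Msx1 (2.43 ± 0.0905) and Tbx5 (2.32 ± 0.0748), which overlapped too. Msx2 was lowest at 0.831 ± 0.0931 RPKM. The combined exons of Prrx1 add up to 11066 bases, the most of the members, and annotated bases absent from its transcripts here would lower its RPKM. Which transcripts were present was not examined. In day 3 cKO cultures the order differed: Tbx15 (46.6 ± 11.5 RPKM, n = 4) and Prrx2 (43.6 ± 13.01) overlapped at the top, and Prrx1 (27.5 ± 3.01), Pitx1 (24.9 ± 6.36), Twist1 (21.1 ± 3.76) and Shox2 (14.1 ± 3.63) each overlapped the next. In day 3 control cultures Prrx2 stood in the sixth place, at 11.8 ± 2.15 RPKM, and Tbx5 last, at 0.293 ± 0.109 RPKM.

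Prrx2, a paired-related homeobox factor that acts alongside Prrx1 in limb and facial mesenchyme, was higher in the cKO at both culture days. At day 0 it measured 7.88, 7.07 and 7.25 CPM in the 3 control and 13.6, 10.5 and 14.97 CPM in the 3 cKO cultures. After BMP2 it measured 29.3, 20.1, 21.7 and 21.2 CPM in the 4 control and 66.1, 83.7, 70.2 and 122 CPM in the 4 cKO cultures. The cKO libraries lay above every control at each day, with replicate 4 highest at day 3. The genotype difference was 0.82 on the log2 scale at day 0 (SE 0.124, adjusted p = 0.000342) and 1.91 at day 3 (SE 0.221, adjusted p = 0.000234). Without replicate 4 the day 3 value was 1.67 (adjusted p = 7.01e-06).

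Prrx1, the related gene whose regulatory DNA drives the Cre, did not follow Prrx2 at day 0. It measured 87.5, 87.04 and 81.2 CPM in control and 70.2, 70.3 and 67.4 CPM in cKO cultures, so every cKO library was below every control (log2 fold change -0.30, SE 0.0397, adjusted p = 0.000132). At day 3 the order was the opposite, with 228, 166, 203 and 174 CPM in control and 295, 305, 269 and 349 CPM in cKO cultures and no overlap (log2 fold change 0.67, SE 0.127, adjusted p = 0.00277). The genotype by day interaction, which tests the difference between both genotype effects, was 0.96 for Prrx1 (SE 0.1499, adjusted p = 0.00128) and 1.07 for Prrx2 (SE 0.288, adjusted p = 0.0235). Without day 3 cKO replicate 4 these were 0.89 and 0.85 (adjusted p = 0.000269 and 0.007). The Prrx2 interaction missed the threshold when day 0 cKO replicate 2 (adjusted p = 0.0647) or day 0 control replicate 1 (adjusted p = 0.0595) was left out.

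Twist1, a basic helix-loop-helix factor that holds mesenchyme undifferentiated, was also higher in the cKO at both days. It measured 12.1, 12.6 and 12.1 CPM in control and 17.6, 15.9 and 17.3 CPM in cKO cultures at day 0, and the groups did not overlap (log2 fold change 0.46, SE 0.0629, adjusted p = 0.000165). Day 3 levels were 22.8, 17.96, 21.2 and 18.9 CPM in control and 37.05, 38.6, 36.3 and 25.2 CPM in cKO cultures (log2 fold change 0.78, SE 0.138, adjusted p = 0.00205). Here too every cKO library lay above every control, although replicate 4 lay nearest to them.

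Msx1 and Msx2, homeobox repressors that BMP signals induce in the limb bud, were both higher in the cKO at day 0, and Msx2 was also called higher at day 3. At day 0 Msx2 measured 2.49, 2.62 and 3.07 CPM in control and 3.82, 3.31 and 3.97 CPM in cKO cultures, without overlap (log2 fold change 0.44, SE 0.1297, adjusted p = 0.0148). After BMP2 it measured 5.69, 2.01, 3.06 and 4.15 CPM in control and 10.2, 13.4, 10.5 and 35.9 CPM in cKO cultures, and the cKO libraries again lay above all controls (log2 fold change 2.26, SE 0.503, adjusted p = 0.00613). Replicate 4 held the highest Msx2 level of all cultures, and without it the day 3 difference was 1.62 (adjusted p = 0.001). Msx1 measured 7.38, 7.35 and 7.85 CPM in control and 8.09, 9.55 and 10.3 CPM in cKO cultures at day 0, higher without overlap (log2 fold change 0.30, SE 0.0979, adjusted p = 0.0216). At day 3 its groups overlapped, at 14.5, 8.79, 6.601 and 7.18 CPM in control and 9.95, 11.8, 8.66 and 5.47 CPM in cKO cultures (log2 fold change -0.028, SE 0.296, adjusted p = 0.947). Without day 3 cKO replicate 4 the Msx1 difference was 0.14 (adjusted p = 0.665). At day 0 the Msx calls were the weakest of those that passed: Msx1 missed the threshold in 4 of 6 fits with a library omitted (adjusted p = 0.0535 to 0.0751) and Msx2 in 3 of 6 (adjusted p = 0.0503 to 0.0588), the libraries being day 0 cKO replicate 3 and control replicates 1 and 2 for both and day 0 cKO replicate 2 for Msx1 alone.

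Shox2, a homeobox factor needed for the growth of the upper limb segment, was lower in the cKO at both days. It measured 81.4, 83.9 and 90.8 CPM in control and 48.5, 43.7 and 44.3 CPM in cKO cultures at day 0 (log2 fold change -0.91, SE 0.0544, adjusted p = 1.02e-06). After BMP2 its levels were 93.7, 107, 89.7 and 96.02 CPM in control and 43.1, 41.4, 37.3 and 64.2 CPM in cKO cultures (log2 fold change -1.03, SE 0.171, adjusted p = 0.00143). No cKO library reached a control level at either day. With all libraries the interaction was -0.15 and was not called (adjusted p = 0.675), while without day 3 cKO replicate 4 it was called lower (-0.34, adjusted p = 0.0245). An exon of Shox2 shares 153 bases with Rsrc1 on the opposite strand, and no source states whether counting used strand, so reads from that stretch cannot be assigned with certainty.

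Tbx15, a T-box factor that supports the number of limb cartilage precursors, differed less. At day 0 it measured 298, 293 and 311 CPM in control and 279, 293 and 256 CPM in cKO cultures. Control replicate 2 and cKO replicate 2 nearly met, and the difference was not called (log2 fold change -0.13, SE 0.0502, adjusted p = 0.0511), although it passed with DESeq2 (adjusted p = 0.0356) and with no filter on low counts (adjusted p = 0.0266). At day 3 it measured 247, 270.4, 259.6 and 249 CPM in control and 193, 198, 199 and 109.9 CPM in cKO cultures, where all cKO libraries lay below all controls and replicate 4 lowest (log2 fold change -0.54, SE 0.1696, adjusted p = 0.0279). Without replicate 4 the difference was -0.39 (adjusted p = 0.000504). It missed the threshold when day 3 control replicate 2, 3 or 4 was left out (adjusted p = 0.0519 to 0.0650).

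Pitx1 and Tbx4, the hindlimb factors, were lower in the cKO at both days. Pitx1 measured 141, 157 and 153 CPM in control and 116, 113 and 113 CPM in cKO cultures at day 0 (log2 fold change -0.40, SE 0.0405, adjusted p = 2.48e-05). At day 3 it measured 112, 123, 125 and 120.5 CPM in control and 72.3, 76.9, 74.4 and 40.97 CPM in cKO cultures (log2 fold change -0.85, SE 0.173, adjusted p = 0.00399). The groups were apart at both days, and without replicate 4, the lowest library, the day 3 difference was -0.69 (adjusted p = 1.47e-05). Tbx4, which acts downstream of Pitx1 in the hindlimb bud, measured 14.3, 15.6 and 12.95 CPM in control and 8.93, 10.2 and 8.96 CPM in cKO cultures at day 0 (log2 fold change -0.61, SE 0.0902, adjusted p = 0.000276). At day 3 it measured 15.8, 18.99, 18.5 and 12.5 CPM in control and 5.68, 5.97, 7.46 and 1.33 CPM in cKO cultures (log2 fold change -1.67, SE 0.411, adjusted p = 0.00981). All cKO libraries were below all controls, with replicate 4 again lowest, and its omission gave -1.37 (adjusted p = 0.000144). Exons of Pitx1 share 165 bases with the antisense gene Gm47071 and 108 bases with Gm28760 on its own strand, so its reads may include theirs.

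Tbx5, the forelimb factor, had genotype differences of opposite sign at day 0 and day 3. At day 0 it measured 11.2, 10.8 and 10.5 CPM in control and 4.03, 6.75 and 5.24 CPM in cKO cultures, lower without overlap (log2 fold change -1.03, SE 0.155, adjusted p = 0.000325). At day 3 it measured 1.302, 1.95, 1.5003 and 0.725 CPM in control and 5.12, 5.08, 5.997 and 0.2305 CPM in cKO cultures. Replicates 1 to 3 of the cKO lay above every control and replicate 4 below every control, with 4 counts. With all 8 libraries the difference was not called (log2 fold change 1.58, SE 0.719, adjusted p = 0.101), and without replicate 4 it was called higher (1.96, adjusted p = 0.000265). With all 14 cultures in 1 fit it was also called (1.57, adjusted p = 0.0347). The interaction was 2.596 (SE 0.819, adjusted p = 0.0466). It missed the threshold in the other 13 fits with a library omitted (adjusted p = 0.0585 to 0.109), and without day 3 cKO replicate 4 it was 2.98 (adjusted p = 1.7e-05). As a share of the summed Tbx5, Tbx4 and Pitx1 counts, Tbx5 made up 5.92% to 6.74% in day 0 control, 3.13% to 5.17% in day 0 cKO, 0.542% to 1.36% in day 3 control and 5.78% to 6.83% in day 3 cKO replicates 1 to 3. In day 3 cKO replicate 4 it was 0.542% (95% Wilson interval 0.211% to 1.39%), level with the lowest control library. Intervals here cover counting error only. Hox genes looked up after the cartilage values were seen were read here too, as unscaled counts. Hoxd9 had 16 to 48 in day 3 control, 163 to 168 in cKO replicates 1 to 3 and 40 in replicate 4. In the same order, Hoxa13 had 17 to 122, 42 to 64 and 167, and Hoxc11 had 108 to 140, 91 to 135 and 202. Hoxc10 had 616 to 927, 719 to 935 and 685, and Hoxc9 had 150 to 182, 119 to 154 and 116. Their link to Tbx5 was not tested.

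**Figure D2:**
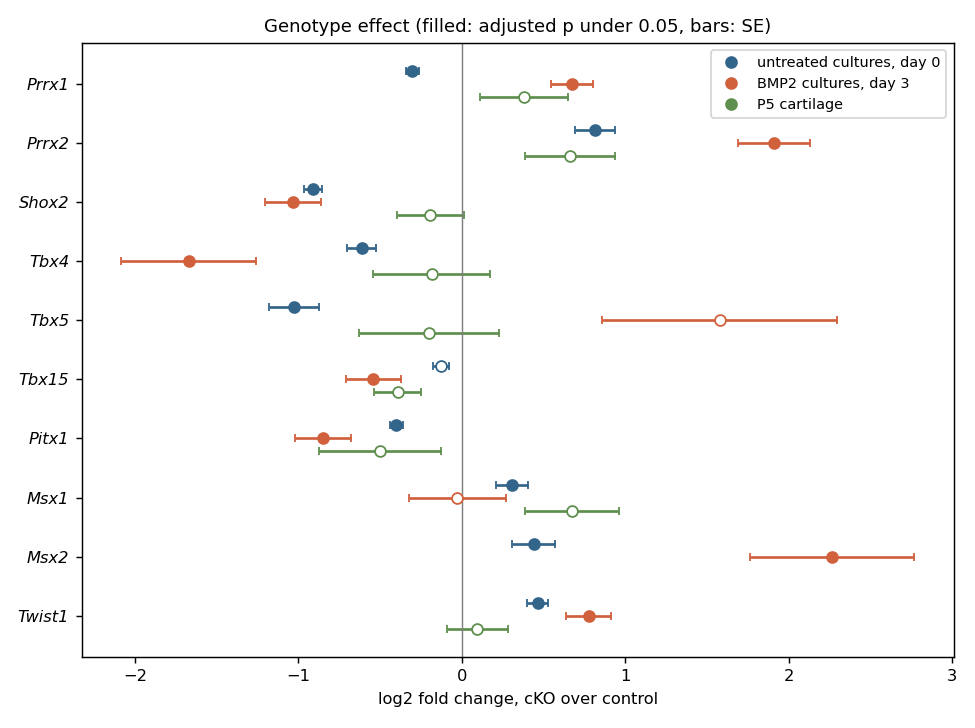
Genotype effect on each factor as log2 fold change of cKO over control (x axis), with bars for the SE from edgeR and filled points for an adjusted p under 0.05; colours mark day 0 cultures (3 against 3), day 3 cultures (4 against 4) and cartilage (4 against 4). Prrx1 lay at -0.30 at day 0 and 0.67 at day 3, no cartilage point is filled, and Msx2 has no cartilage point because it did not pass the filter.

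The promoters of genes that moved together in both cultures were compared because Dnmt1 copies methylation at CG dinucleotides; methylation itself was not measured here. RefSeq starts (GRCm38.p6) were found for 7 of the 10 members, and the 250 bases before each start were searched. None was found for Tbx5, Tbx15 and Pitx1, so Pitx1, which was lower at both days, is missing from the comparison. The window held 21 CG in Prrx2, 18 in Twist1 and 16 in Msx2, which were higher in the cKO at both days, and 11 in Shox2 and 6 in Tbx4, which were lower at both. Msx1 had 20 and Prrx1 4. All 250 bases of the Prrx2 and Msx2 windows and 60 bases of the Prrx1 window lie in exons that GENCODE annotates, so of the genes higher at both days Twist1 alone has a window outside them. The median over 32851 promoters of the same length was 6, and 92.1% of them held at least 1 CG. At least 18 CG were found in 21.7% of all promoters, at least 11 in 35.6% and at least 6 in 50.4%. Of 2 other motifs searched, the E-box CANNTG (bound by Twist1-type factors, its own reverse complement) was found in 66.2% of promoters and occurred 3 times in Tbx4 and once each in Msx1 and Msx2. The homeodomain core TAATTA, also its own reverse complement, was found in 4.84% of promoters and occurred once each in Prrx1 and Msx2. Windows of a gene higher and of 2 genes lower at both days that lie outside annotated exons are shown on the gene's own strand, with every CG in capitals.
Twist1, chr12:33957421-33957670, plus strand: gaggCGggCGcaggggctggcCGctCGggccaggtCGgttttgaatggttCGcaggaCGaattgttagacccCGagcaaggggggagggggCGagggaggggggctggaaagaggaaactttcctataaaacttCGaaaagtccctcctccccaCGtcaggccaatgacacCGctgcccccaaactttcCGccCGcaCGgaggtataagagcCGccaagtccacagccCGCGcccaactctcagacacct
Shox2, chr3:66981772-66982021, minus strand: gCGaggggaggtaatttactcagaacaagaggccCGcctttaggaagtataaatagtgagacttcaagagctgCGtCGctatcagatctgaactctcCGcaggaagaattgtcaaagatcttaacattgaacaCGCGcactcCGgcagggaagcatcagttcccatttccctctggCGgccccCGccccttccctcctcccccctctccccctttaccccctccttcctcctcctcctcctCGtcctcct
Tbx4, chr11:85896515-85896764, plus strand: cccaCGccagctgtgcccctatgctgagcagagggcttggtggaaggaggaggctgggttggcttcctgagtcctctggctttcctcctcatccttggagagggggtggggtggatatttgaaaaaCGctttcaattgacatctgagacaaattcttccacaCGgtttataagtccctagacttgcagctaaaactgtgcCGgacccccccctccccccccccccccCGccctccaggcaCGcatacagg
The 3 windows hold 18, 11 and 6 CG in the order shown. These counts describe the sequence and not its methylation. The RefSeq starts used for Tbx4, Prrx2, Msx2 and Prrx1 lie inside the longer genes that GENCODE annotates.

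The day 0 to day 3 change was tested in each genotype with all 14 cultures in 1 fit. Culture time, BMP2 and count table change together, and day 0 libraries were sequenced more deeply, so these cannot be told apart. In control cultures 3 members were called higher at day 3 and 1 lower, where 28.1% of 14909 genes were called higher and 28.8% lower. Among cKO cultures, 4 were called higher and 3 lower, where 32.4% were called higher and 29.8% lower. The median log2 change of the members was 0.25 in control (0.00 over all genes) and -0.01 in cKO (0.02 over all genes).

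Prrx1 rose by 1.18 on the log2 scale in control (SE 0.109, adjusted p = 1.8e-06) and by 2.13 in cKO cultures (SE 0.113, adjusted p = 2.32e-08). Prrx2 rose by 1.64 (SE 0.215, adjusted p = 3.23e-05) and 2.71 (SE 0.218, adjusted p = 5.28e-07). Twist1 rose by 0.72 (SE 0.131, adjusted p = 0.00043) and 1.02 (SE 0.13003, adjusted p = 2.27e-05). Its interaction of 0.30 was not called (adjusted p = 0.295), but passed without day 3 cKO replicate 4 (0.42, adjusted p = 0.0137). These mesenchymal factors thus rose with time and BMP2 in both genotypes, with no overlap between days. With all libraries the interaction passed for Prrx1 and Prrx2 of the 3. Msx2 rose in cKO cultures by 2.24 (SE 0.439, adjusted p = 0.000674) and had a change of 0.44 in control (adjusted p = 0.424), with an interaction of 1.798 that missed the threshold (adjusted p = 0.0601) and passed with DESeq2 (adjusted p = 0.0203) and without day 3 cKO replicate 4 (1.19, adjusted p = 0.0213). With 1 library left out, the cKO change of Msx2 ranged from 1.62 to 2.41. Msx1 was called in neither genotype (0.30 in control and -0.050 in cKO, adjusted p = 0.371 and 0.881).

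Tbx5 fell by 2.97 on the log2 scale in control cultures (SE 0.597, adjusted p = 0.000915), from 10.5 to 11.2 CPM at day 0 to 0.725 to 1.95 CPM at day 3. These levels rest on 456 to 514 and 11 to 36 counts per library, which are not scaled for the lower depth at day 3. In cKO cultures its change was -0.37 (adjusted p = 0.575), with overlap between the days, and 0.017 without replicate 4. Pitx1 and Tbx15 fell in cKO cultures by 0.79 (SE 0.157, adjusted p = 0.000784) and 0.66 (SE 0.156, adjusted p = 0.0025). With 1 library left out, the cKO change ranged from -0.89 to -0.61 for Pitx1 and from -0.76 to -0.49 for Tbx15. In control cultures their changes of -0.32 and -0.23 were not called (adjusted p = 0.097 and 0.229), although neither gene's day 0 and day 3 levels overlapped. Without day 3 cKO replicate 4, which adds to the shared estimate of spread, both control changes were called at nearly the same size (-0.32 and -0.23, adjusted p = 4.6e-05 and 0.00161). Shox2, whose control change was 0.18 (adjusted p = 0.311), then passed too (0.18, adjusted p = 0.0341), so 4 members were called higher and 3 lower in control. The shares over all genes were not computed for that fit. The same 3 genes passed in a fit of the 7 control cultures alone (adjusted p = 0.00107 for Pitx1, 0.00463 for Tbx15 and 0.0400 for Shox2). Its change in cKO was 0.031 (adjusted p = 0.865). Tbx4 fell in cKO cultures by 0.87 (SE 0.349, adjusted p = 0.0443), which was -0.55 without day 3 cKO replicate 4 (adjusted p = 0.006). The call was lost in 10 of the 14 fits without 1 library (adjusted p = 0.05005 to 0.109) and in a fit of the 7 cKO cultures alone (adjusted p = 0.146), and the change in control was 0.20 (adjusted p = 0.64).

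For the genotype by day interaction 3 members were called higher (Prrx1, Prrx2 and Tbx5) and 0 lower by edgeR, where 9.94% of 14909 genes were called higher and 6.89% lower. At an unadjusted p under 0.05 the counts were 4 and 1. DESeq2 called 4 and 0, and 3374 genes in all. For neither were the shares over all genes computed by direction. Without day 3 cKO replicate 4 the counts were 5 higher and 4 lower. The shares over all genes were not computed for that fit, and 9.94% and 6.89% are those of the fit with the library. Msx2 and Twist1 (0.42, adjusted p = 0.0137) were then called higher beside Prrx1, Prrx2 and Tbx5, and 4051 genes were called in all against 2509 with the library. The 4 called lower were Tbx4 (-0.76, adjusted p = 0.0142), Shox2 (-0.34, adjusted p = 0.0245), Pitx1 (-0.29, adjusted p = 0.00818) and Tbx15 (-0.26, adjusted p = 0.0235).

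**Figure D3:**
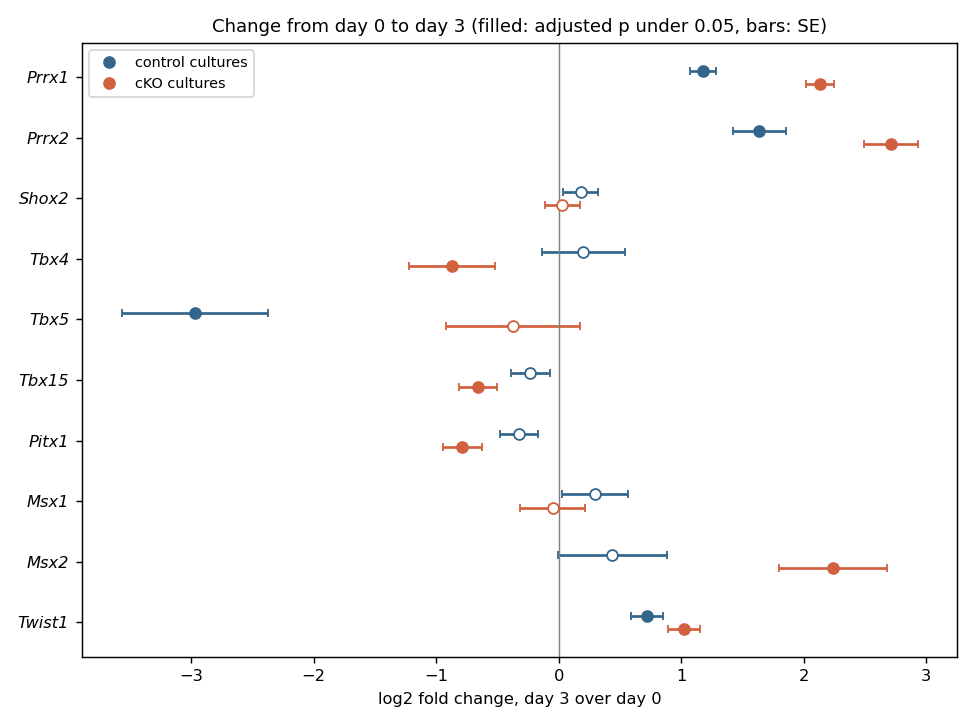
Change of each factor from day 0 to day 3 as log2 fold change (x axis) in control and cKO cultures (3 against 4 in each), with bars for the SE from edgeR and filled points for an adjusted p under 0.05. Prrx1, Prrx2 and Twist1 lie right of 0 in both genotypes, and Tbx5 fell by 2.97 in control cultures while its cKO point at -0.37 is open.

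In cartilage taken from the animal, no member differed between genotypes past the threshold. EdgeR called 0 higher and 0 lower of 9 tested, and DESeq2 also called 0 and 0, with 436 genes called in all. At an unadjusted p under 0.05 edgeR gave 2 higher and 1 lower. The share of all genes at that unadjusted threshold was not computed, so these counts say little of the members as a set. No member's groups were apart, and the share of all genes with groups apart was not computed. The members' median log2 fold change was -0.18 and that of all genes 0.01. Ribosomal RNA made up 9.96% to 23.6% of the counts in these libraries, and members had at most 195 counts in 1 library; the part of depth in the absence of calls was not tested. Counts come from 3′ ends, so levels are not compared between genes. The chondrocyte markers summed to 63676 to 95445 CPM in control and 29199 to 58657 CPM in cKO samples (3 of 10 called lower). Muscle markers summed to 8.04 to 10.8 CPM in control and 13.9 to 16.8 CPM in cKO samples other than replicate 2. Osteoblast markers summed to 69.6 to 268 CPM in control samples, above the 3 cKO samples other than replicate 2. Blood and osteoclast markers summed to 216 to 873 and 66.4 to 396 CPM (3 of 3 tested called lower). These lists' part in the members' values was not tested. The authors' second table for these samples holds estimated counts, and its fold change is given beside each member.

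Prrx2 measured 10.3, 11.7, 14.3 and 25.1 CPM in the control samples and 15.6, 29.05, 33.98 and 21.03 CPM in the cKO samples, in the order of their replicate numbers. Its groups overlapped, and the difference of 0.66 (SE 0.275) had an adjusted p of 0.174 and was 0.79 in the estimated counts. Msx1 measured 10.995, 5.83, 6.27 and 8.04 and 18.04, 12.8, 10.5 and 10.1 CPM, and control replicate 1 lay above cKO replicates 3 and 4 (log2 fold change 0.68, SE 0.288, adjusted p = 0.184), and 0.54 in the estimated counts. Tbx15 measured 71.8, 56.7, 68.1 and 73.4 and 48.4, 48.7, 47.9 and 61.4 CPM, where cKO replicate 4 lay above control replicate 2 (log2 fold change -0.39, SE 0.143, adjusted p = 0.123), and -0.47 in the estimated counts. These 3 genes had an unadjusted p under 0.05 (0.0296, 0.0331 and 0.0153) and did not pass after adjustment. Prrx1 measured 46.9, 107, 48.4 and 90.97 and 62.3, 104, 142 and 78.2 CPM, with broad overlap (log2 fold change 0.38, SE 0.271, adjusted p = 0.439, and 0.34 in the estimated counts). Its difference was 0.13 without cKO replicate 3 and 0.69 without control replicate 2. Twist1 measured 46.2, 57.5, 48.4 and 71.9 and 67.3, 72.6, 60.99 and 42.9 CPM, also with broad overlap (log2 fold change 0.096, SE 0.187, adjusted p = 0.802, and 0.046 in the estimated counts). Msx2 had 0 to 6 counts per library and was not tested. Its 0 counts in cKO replicate 2 allow a level of up to 3 counts, or 2.61 CPM of that library before scaling.

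**Figure D4:**
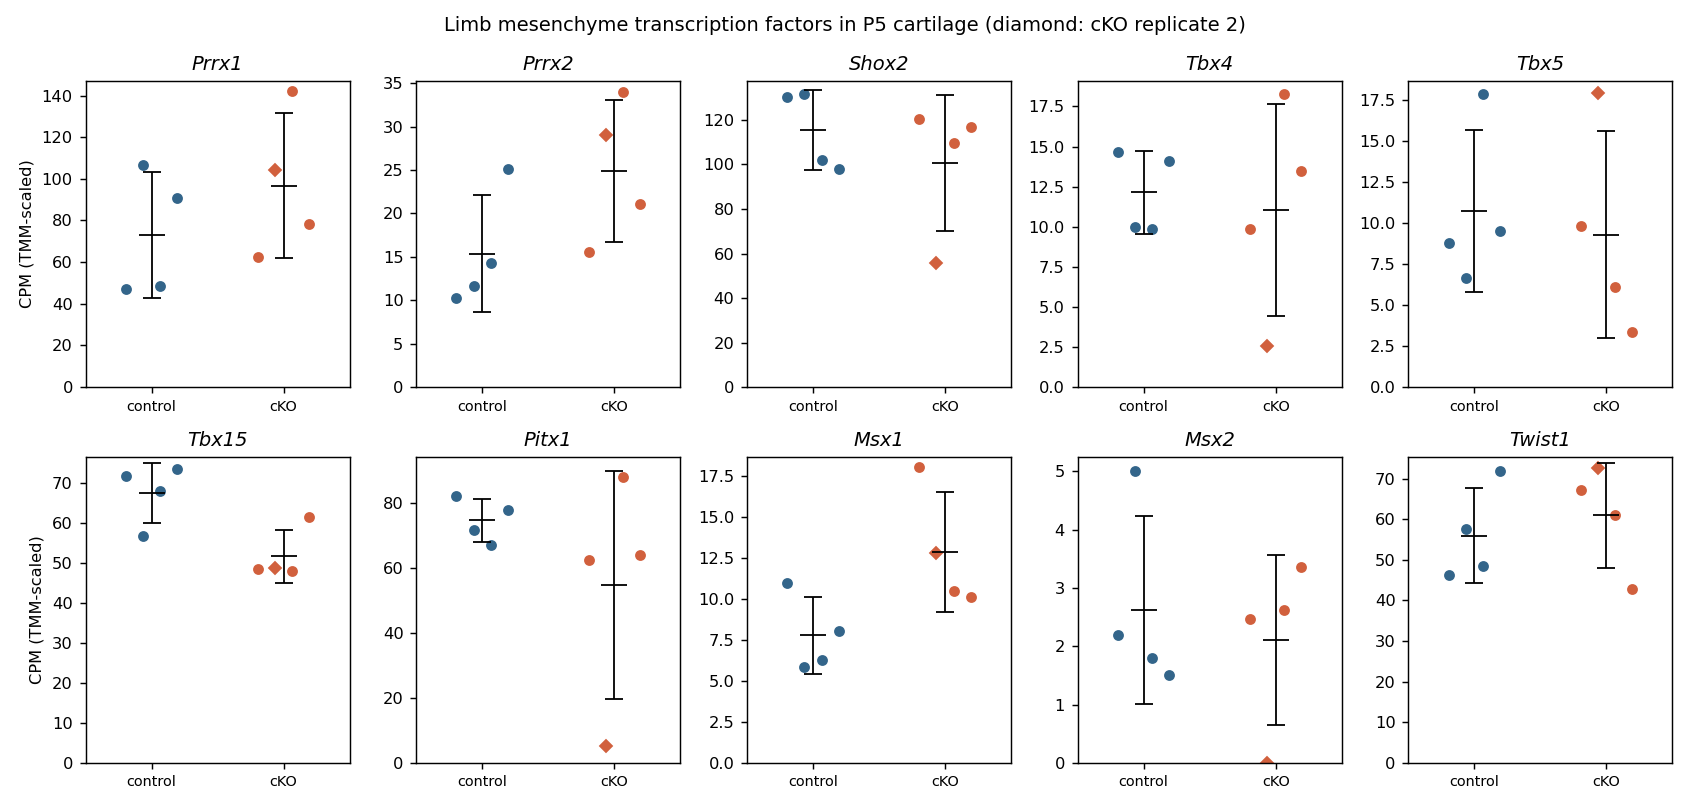
Level of each factor in the 8 cartilage libraries, in TMM-scaled CPM on a linear axis from 0, with 1 point per library and bars for the mean ± SD of each genotype (n = 4). The groups overlap for every factor, and the diamond marks cKO replicate 2, which lay lowest of all 8 libraries for Shox2, Tbx4, Pitx1 and Msx2.

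The limb-type genes set cKO replicate 2 apart. It held 21 counts of Tbx5, 3 of Tbx4 and 6 of Pitx1, so Tbx5 made up 70% of the 3 genes' counts (95% Wilson interval 52.1% to 83.3%), against 4.17% to 18.9% in the other 7 libraries. The estimated counts gave 59.6% against 5.97% to 17.9%. Hoxc10, a posterior Hox gene of the hindlimb looked up after these values were seen, had 1 count there and 41 to 115 elsewhere, and Hoxc11 had 0 against 2 to 7. Of the other Hox genes looked up with them, Hoxc9 had 6 counts against 22 to 42. Hoxd9 (31 against 11 to 53) and Hoxa13 (1 against 0 to 7) did not set this library apart. The labels name the tissue only as cartilage for these samples and give no limb, so the source of this difference was not tested. Pitx1 measured 82.1, 71.7, 67.2 and 77.9 CPM in control and 62.3, 5.13, 87.99 and 63.9 CPM in cKO samples (log2 fold change -0.50, SE 0.371, adjusted p = 0.457, and -0.51 in the estimated counts), and the difference was -0.085 without cKO replicate 2. With no filter on low counts Pitx1 passed as lower (adjusted p = 0.0429), with that library in the fit. Tbx4 measured 14.7, 10.002, 9.85 and 14.1 and 9.84, 2.56, 18.3 and 13.5 CPM (log2 fold change -0.18, SE 0.356, adjusted p = 0.8, and -0.12 in the estimated counts), and 0.11 without that library. Tbx5 measured 8.796, 6.67, 17.9 and 9.55 and 9.84, 17.9, 6.099 and 3.37 CPM (log2 fold change -0.20, SE 0.428, adjusted p = 0.822, and 0.067 in the estimated counts), and -0.70 without it. Shox2 measured 130.5, 132, 102 and 98.002 and 121, 55.5, 109.8 and 117 CPM (log2 fold change -0.19, SE 0.203, adjusted p = 0.63, and -0.21 in the estimated counts), and 0.058 without it. Omitting 1 library thus turned the sign of Tbx4 and Shox2, and no member was called without it either.

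**Figure D5:**
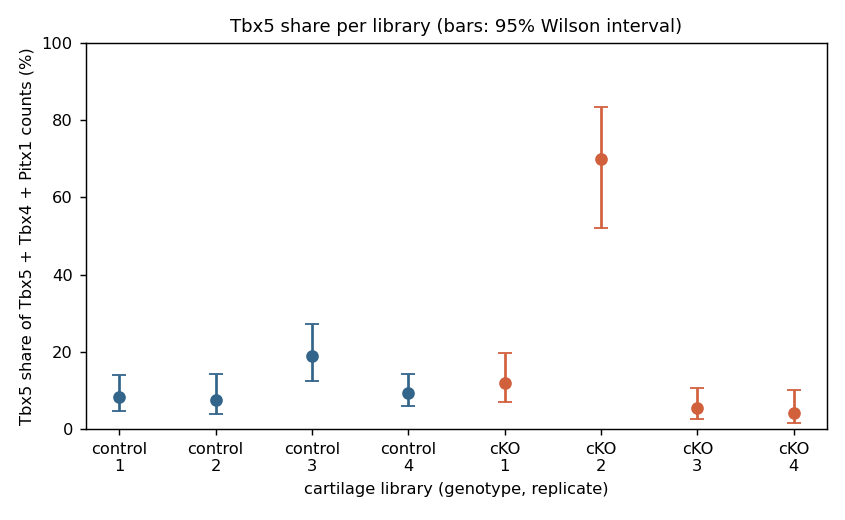
Share of Tbx5 in the summed counts of Tbx5, Tbx4 and Pitx1 in each cartilage library (y axis, percent), with 95% Wilson intervals. Control replicates 1 to 4 and cKO replicates 1, 3 and 4 lie between 4.17% and 18.9%, and cKO replicate 2 lies at 70%.

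Other genes of the same families and of limb patterning were read from 3 lists. DESeq2 was run without the filter on low counts, so its counts are out of the genes with any count. For DESeq2, for fits without a library and at an unadjusted p under 0.05, the shares over all genes were not computed by direction. The other counts of all 3 lists are to be read beside edgeR's shares over all genes tested, with all libraries. At day 0, 33.0% were called higher and 31.6% lower, and at day 3, 25.5% and 22.6%. In cartilage the shares were 3.15% and 3.04%, and for the interaction 9.94% and 6.89%. From day 0 to day 3 they were 28.1% and 28.8% in control and 32.4% and 29.8% in cKO cultures. Of 23 T-box, paired-like, Msx and Twist relatives, 13 were tested at day 0, with 6 called higher and 2 lower. The median log2 fold change was 0.10 (0.01 over all genes). Eomes (3.27), Alx1 (1.801) and Twist2 (1.21), the closest relative of Twist1, were higher, and Tbx18 (-0.49) and Tcf12 (-0.23), an E protein that pairs with Twist factors, were lower. At day 3, 10 were tested and 1 was called in each direction, Tbx3 (2.696) higher and Tcf12 (-0.34) lower, with a median of 0.01 for the list and for all genes. DESeq2 called 4 of 21 higher and 1 lower at day 3, and edgeR without day 3 cKO replicate 4 called 3 of 11 higher and 2 lower. In cartilage 1 of 6 was called higher (Mga, 0.59) and 0 lower by edgeR (0 lower at an unadjusted p under 0.05), and DESeq2 called 0 of 20 in either direction. Over time, Tbx18 rose in control (1.32) and in cKO cultures (1.56), as did Twist2 in control (0.87) and Tbx3 in cKO (2.37), with 3 higher and 1 lower of 12 in control and 5 higher and 3 lower of 12 in cKO. Alx4 fell in control cultures by 2.82. The interaction was called for Alx4 (3.11), Tbx3 (2.31) and Twist2 (-1.38).

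Of 39 other limb bud patterning transcription factors, 34 were tested at day 0, with 17 called higher and 13 lower (median 0.24), and 30 at day 3, with 9 higher and 10 lower (median -0.22). Among all genes, 33.0% were called higher and 31.6% lower at day 0, and 25.5% and 22.6% at day 3. Lhx2, a LIM homeobox factor of the distal limb bud, was higher at both days (2.39 and 2.97), as was the Iroquois factor Irx5 (2.01 and 3.102). Isl1, which acts upstream in the hindlimb field, was higher at day 0 (2.73). Gli1, a transcriptional target and effector of hedgehog signals, was lower at both days (-3.49 and -3.72). Nkx3-2, a cartilage-promoting repressor, and Irx1 were lower at day 3 (-1.68 and -2.52). In cartilage 0 of 18 were called higher by edgeR (0 at an unadjusted p under 0.05) and 1 lower, Barx1 (-0.53), and without cKO replicate 2 there were 2 lower of 19. DESeq2 called 0 of 36 in either direction. From day 0 to day 3, 16 were called higher and 5 lower of 35 in control, among them Irx1 (4.33) and Meox2 (-1.56), and 15 higher and 10 lower in cKO, among them Irx5 (3.49) and Meox1 (-4.01). The interaction gave 0 higher and 4 lower of 35 by edgeR (3 higher and 8 lower at an unadjusted p under 0.05). DESeq2 gave 1 higher and 6 lower of 39, and edgeR without day 3 cKO replicate 4 gave 3 higher and 3 lower of 33. Irx1 (-2.92), Isl1 (-2.86) and Lhx9 (-1.65) led the lower calls.

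Among 20 limb bud signals, 13 were tested at day 0, with 5 called higher and 5 lower (median 0.08), and 14 at day 3, with 4 higher and 4 lower (median 0.16). The shares over all genes were 33.0% higher and 31.6% lower at day 0, and 25.5% and 22.6% at day 3. The joint ligand Gdf5 was higher at day 0 (1.36). The retinoic acid hydroxylase Cyp26b1 (0.83 and 1.57) and the BMP receptor Bmpr1b (0.75 and 1.03) were higher at both days. The hedgehog receptor Ptch1 (-0.50 and -1.03) and the BMP antagonist Grem1 (-1.04 and -0.80) were lower at both. Fgf10, a mesenchymal signal whose limb bud expression Tbx5 and Tbx4 help to start, was lower at day 3 (-1.33), while Bmp4 was higher (1.899). In cartilage edgeR called 0 of 11 in either direction (0 higher and 3 lower at an unadjusted p under 0.05), and DESeq2 called 0 of 18. From day 0 to day 3 Grem1 rose by 6.73 in control and 6.94 in cKO cultures, and Fgf10 by 4.301 and 3.35. In all, 6 of 14 were called higher and 3 lower in control, and 8 higher and 3 lower in cKO. The interaction was called for Cyp26b1 (0.73) and Ptch1 (-0.55), and without day 3 cKO replicate 4 it was called for 2 higher and 2 lower.

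For the 3 members with the highest mean log2 CPM over the 14 cultures, a ranking that takes no account of length (per length, Shox2 stood above Prrx1 in 3 of the 4 groups), the genes with the most similar profiles were listed by Pearson's r of log2 CPM. The 14 libraries share 4 groups and 2 depths, and r is given as a description only. Tbx15 was nearest to Map7d3 (r = 0.982), Rtl3 (0.982) and Abtb2 (0.978), and within the 6 day 0 libraries r was 0.42, 0.81 and 0.76. Prrx1 was nearest to Adprh (0.992), Npc2 (0.990) and Slc43a2 (0.986), with 0.71, 0.88 and 0.53 at day 0. Pitx1 was nearest to Rbmx (0.984), the cartilage collagen Col2a1 (0.980) and Carmil1 (0.980), with 0.97, 0.95 and 0.88 at day 0. Within the 8 day 3 libraries the 3 genes nearest to Pitx1 had r of about 0.99.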

How the data were processed

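The members and the lists of related and marker genes were chosen with earlier results of these data known. Cultures were sequenced from NEBNext Ultra II Directional libraries, for which estimated counts were deposited by the authors. Cartilage was sequenced by 3′ BRB-seq with molecular identifiers, per the labels' protocols, and the authors deposited both whole-number counts and estimated counts of it. The submitters' processing notes name GRCm38 and, for cartilage, UMI-tools 1.1.1, Trim Galore 0.6.7, HISAT2 2.2.1, featureCounts 2.0.1 and DESeq2 1.34.0; the tools for the cultures are not given in the sources used here. Cartilage values come from the whole-number counts unless stated.

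Estimated counts were rounded. Genes with low counts were removed with filterByExpr (minimum count 10, minimum total 15), libraries were scaled by TMM and tested with edgeR 4.0.16 in R 4.3.3 (quasi-likelihood test, Benjamini-Hochberg over all genes tested). Cartilage fits had sex as a term. The SE is the absolute log2 fold change over the square root of the F statistic. Members, Dnmt1, up to 3 genes called per direction in each list and comparison, and the 3 genes most like each of the 3 members with the highest mean log2 CPM are named. Exon lengths come from GENCODE M21. The fits were tested on simulated counts: of genes changed by 1 on the log2 scale, 86.7% were recovered in the day 0 setting (15477 genes), 75.8% in the day 3 setting (14033 genes), 83.5% in the cartilage setting (8799 genes) and 44.8% for the interaction (14492 genes). Unchanged genes made up 1.43% to 7.54% of those called over the comparisons, and 5.43% in cartilage. The simulation changed few genes, gave all genes the same spread and held no library that stood apart. Its shares are averages over genes of all levels and do not give the recovery for members with few counts. Alternatives were DESeq2 1.42.0, RLE scaling, no filter, the replicate number as a block, other sets of libraries in the fit, no sex term, the estimated cartilage counts and each library left out. Counts of the lists without a library that stood apart, and with DESeq2, were added after seeing the data.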

Additional observations from a re-analysis of the deposited data

Results flagged for a closer look

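In groups of 4 libraries, the highest or lowest level was set apart by its gap to the next library (40 groups of a member were examined for the cultures at day 3 and for cartilage, and chance alone sets about 1 in 20 apart). Day 3 cKO replicate 4 was set apart for 5 members: Tbx5 at 0.230 CPM, Tbx15 at 109.9 CPM, Pitx1 at 41.0 CPM and Twist1 at 25.2 CPM were low, and Msx2 at 35.9 CPM was high. The same library had the lowest chondrocyte, muscle and osteoblast marker sums and the lowest Dnmt1 level of its group, and the part of these in its values was not tested. Prrx2 was set apart as high in day 3 control replicate 1, at 29.3 CPM. In cartilage, Shox2 was set apart as low in cKO replicate 2, at 55.5 CPM, and Tbx15 as high in cKO replicate 4, at 61.4 CPM.

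The genotype effect differed between day 0 and day 3, by the interaction term in edgeR, for Prrx1 by 0.96 on the log2 scale (lower in 3 of 3 cKO cultures at day 0 and higher in 4 of 4 at day 3 than any control), for Prrx2 by 1.07 (above every control in 3 of 3 and 4 of 4) and for Tbx5 by 2.60 (below every control in 3 of 3 at day 0 and above every control in 3 of 4 at day 3). Adjusted p-values were 0.00128, 0.0235 and 0.0466.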

How the results depend on the processing

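Over the 10 members, 59 fold changes had 926 alternative values, of which 845 kept direction and side of the threshold, 41 lost the call, 24 gained it and 16 changed sign. Sign changes touched only fold changes that were not called. With 1 library left out, Msx1 at day 3 ranged from -0.18 to 0.26. In cartilage Prrx1 kept its sign but ranged from 0.13 to 0.69, Prrx2 from 0.43 to 0.96 and Pitx1 from -0.79 to -0.085. Shox2 ranged there from -0.33 to 0.058, Tbx4 from -0.46 to 0.11, Tbx5 from -0.70 to 0.13 and Twist1 from -0.036 to 0.29, and Tbx5 was 0.067 in the estimated counts. For the cKO change over days Shox2 ranged from -0.16 to 0.10, Tbx5 from -0.65 to 0.017 and Msx1 from -0.24 to 0.13.

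After each gene was centred on its group mean, correlations of same-numbered libraries were -0.023 to 0.317 at day 0, -0.167 to -0.085 at day 3 and -0.043 to 0.148 in cartilage. Differently numbered libraries were not compared, so these values cannot decide whether the replicate numbers pair the samples. With the replicate number as a block, Shox2 and Msx1 in the cKO change went to -0.077 and 0.063. The interaction then called 1 member lower (Tbx4) and 4 higher (with Msx2 added), and 2490 genes in all. No other member call changed.

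With 1 library left out, members called higher and lower ranged over 2 to 4 and 5 to 6 at day 0 and 4 to 5 and 3 to 4 at day 3. For the change they ranged over 3 to 4 and 1 to 3 in control, for cKO they were 4 higher and 2 to 3 lower, and for the interaction they ranged over 1 to 5 and 0 to 4. Genes called ranged over 9106 to 9736 at day 0 (10023 with all libraries), 5694 to 7808 at day 3 (6693) and 362 to 630 in cartilage (544). Over the days they were 7438 to 9780 in control (8476) and 8289 to 9962 in cKO (9274), and 1591 to 4051 for the interaction (2509). With all 14 cultures in 1 fit, day 0 gave 2 members higher and 2 lower and 6260 genes called instead of 10023. With no filter, cartilage gave 1 member lower (Pitx1) and 1044 genes called. A fit of the 7 control cultures alone gave 4 members higher and 3 lower over days and 9074 genes called. In cartilage the members had 0 to 195 counts per library, and the part of depth in the absence of calls was not tested.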
